A study of Mus musculus with 12 samples.

Results

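S100 genes encode small proteins with paired EF-hand calcium-binding loops, and 9 members of the family were followed here in RNA-seq of mouse dorsal epidermis: S100a3, S100a4, S100a6, S100a8, S100a9, S100a10, S100a11, S100a14 and S100a16. They were chosen by name, without a threshold on any value but with earlier results of these data known. They were matched by Entrez gene number among 19392 genes with values at postnatal day 36 (P36) and 17750 genes with values at 6 months. All 9 had values in all 12 libraries and passed the filter on low values, which asked for at least 1 FPKM in at least 3 libraries. FPKM, fragments scaled to transcript length and to the mapped total of the library, is a level corrected for transcript length, so levels can be set side by side between genes.

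The libraries form 4 groups of 3. The double knockouts (DKO) at P36 and at 6 months carry floxed alleles of the vitamin D receptor gene (VDR fl/fl) and of its coactivator Mediator subunit 1 (Med1 fl/fl) with K14 Cre+/-, a recombinase driven by the promoter of keratin 14, which is active in basal keratinocytes and hair follicle epithelium. The controls of both ages carry the same floxed alleles and are K14 Cre-/-, and both genotypes are on the C57BL/6 background. The DKO to control comparison asks what loss of both proteins from keratinocytes does to the epidermis in youth and later. The labels do not say whether the 3 libraries of a group came from separate animals. The p-values below therefore reflect library-to-library spread, part of which may be technical. The age of each table was read from its name, and age and table coincide, so the effect of age and of anything that differed between the 2 tables cannot be told apart.

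In the skin, S100 proteins act inside keratinocytes, where most work as dimers that bind annexins, cytoskeletal proteins or ubiquitin-ligase adaptors when calcium rises, and some also act outside the cell as alarm signals through receptors such as RAGE and the Toll-like receptors. Most mouse members lie in 1 cluster on chromosome 3, inside the wider epidermal differentiation complex. S100a8 and S100a9 form calprotectin, which is abundant in neutrophils and is made by keratinocytes in wounds and in inflamed skin. S100a3 is best known from the cuticle of the hair shaft.

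Vdr averaged 83.5 ± 6.06 FPKM in the DKO-labelled libraries and 68.0 ± 4.16 FPKM in control libraries at P36, and 48.1 ± 5.49 FPKM in the DKO-labelled libraries and 40.5 ± 11.6 FPKM in control libraries at 6 months (SD, n = 3 each). It was therefore not lower under the DKO label at either age, and every DKO direction below rests on that label. Med1 averaged 9.11 ± 1.11 FPKM in the DKO-labelled libraries and 13.8 ± 0.504 FPKM in control libraries at P36, a log2 change of -0.55 (limma adjusted p = 0.0083), and 11.6 ± 0.256 FPKM in the DKO-labelled libraries against 14.2 ± 2.21 FPKM in control libraries at 6 months (log2 change -0.26, adjusted p = 0.13). The labels used here do not say which exons are floxed, and a value over the whole gene does not show whether that part is missing. Total FPKM per library ran between 446617 and 554382, and 12056 to 12760 genes reached 1 FPKM. The number of reads per library is not known from these tables, so values carry no counting interval. Keratinocyte markers summed to 10875, 12738 and 14384 FPKM in the DKO-labelled libraries and 6675, 5294 and 7113 FPKM in control libraries at P36, with 5 of 10 called higher and 2 lower. At 6 months they summed to 17275, 15279 and 14174 FPKM in the DKO-labelled libraries and 18547, 26408 and 22705 FPKM in control libraries, with 2 of 10 called higher and 6 lower. At P36, 8 of 9 tested skeletal muscle markers and 10 of 10 macrophage markers were also called higher in the DKO-labelled libraries. Summed muscle markers were at 130 to 556 FPKM in the DKO-labelled libraries against 13.3 to 27.9 FPKM in control libraries. At 6 months the third DKO-labelled library stood apart, with muscle markers at 140 FPKM and macrophage markers at 398 FPKM, against 17.8 and 9.03 FPKM for muscle and 90 and 107 FPKM for macrophages in the other two. Without that library the same 6 S100 genes were called at 6 months as with it, and the log2 changes of S100a8 and S100a9 were 4.52 and 4.09.

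A gene was called when its Benjamini-Hochberg adjusted p over all genes tested, from limma on log2(FPKM + 1), was below 0.05. A gene below 1 FPKM in every library of 1 group passed the filter only through the other group, and the marker and list counts include such genes. The shares of all genes given in this paragraph apply to the marker and list counts as well. At P36, 5 of the 9 S100 genes were called, where 23.3% of the 12660 genes tested were called: S100a4, S100a10 and S100a11 were higher (18.0% of all genes) and S100a3 and S100a16 lower (5.32% of all genes) in the DKO-labelled libraries. At 6 months 6 of the 9 were called, where 41.3% of 12594 genes were: S100a8, S100a9, S100a14 and S100a16 were higher (23.2% of all genes) and S100a4 and S100a6 lower (18.2% of all genes). S100a4 and S100a16 were called at both ages in opposite directions. The median log2 change of the 9 genes was 0.44 at P36 beside 0.09 over all genes tested, and 0.23 at 6 months beside 0.04. How far the genotype effect differed between ages, tested as an interaction in 1 fit of the 12 libraries and given as 6 months minus P36, gave 6 calls among the 9, where 34.9% of 13280 genes were called. S100a8, S100a14 and S100a16 had a higher effect at 6 months (13.8% of all genes), and S100a4, S100a10 and S100a11 a lower one (21.1% of all genes). Scaled to the median ratio over genes, the P36 calls over all genes split into 1700 higher and 965 lower, against 2275 and 674 as deposited. Scaled to totals without keratin and cornified envelope genes, the 6-month calls split into 1833 higher and 3436 lower, against 2918 and 2289, with the median of all genes at -0.1338 against 0.0446. The same scaling gave 1266 higher and 3430 lower calls for the difference between ages, against 1827 and 2804, with the median at -0.2042 against -0.0801, and moved the median between ages in controls to 0.2177 against 0.0955.

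**Figure D1:**
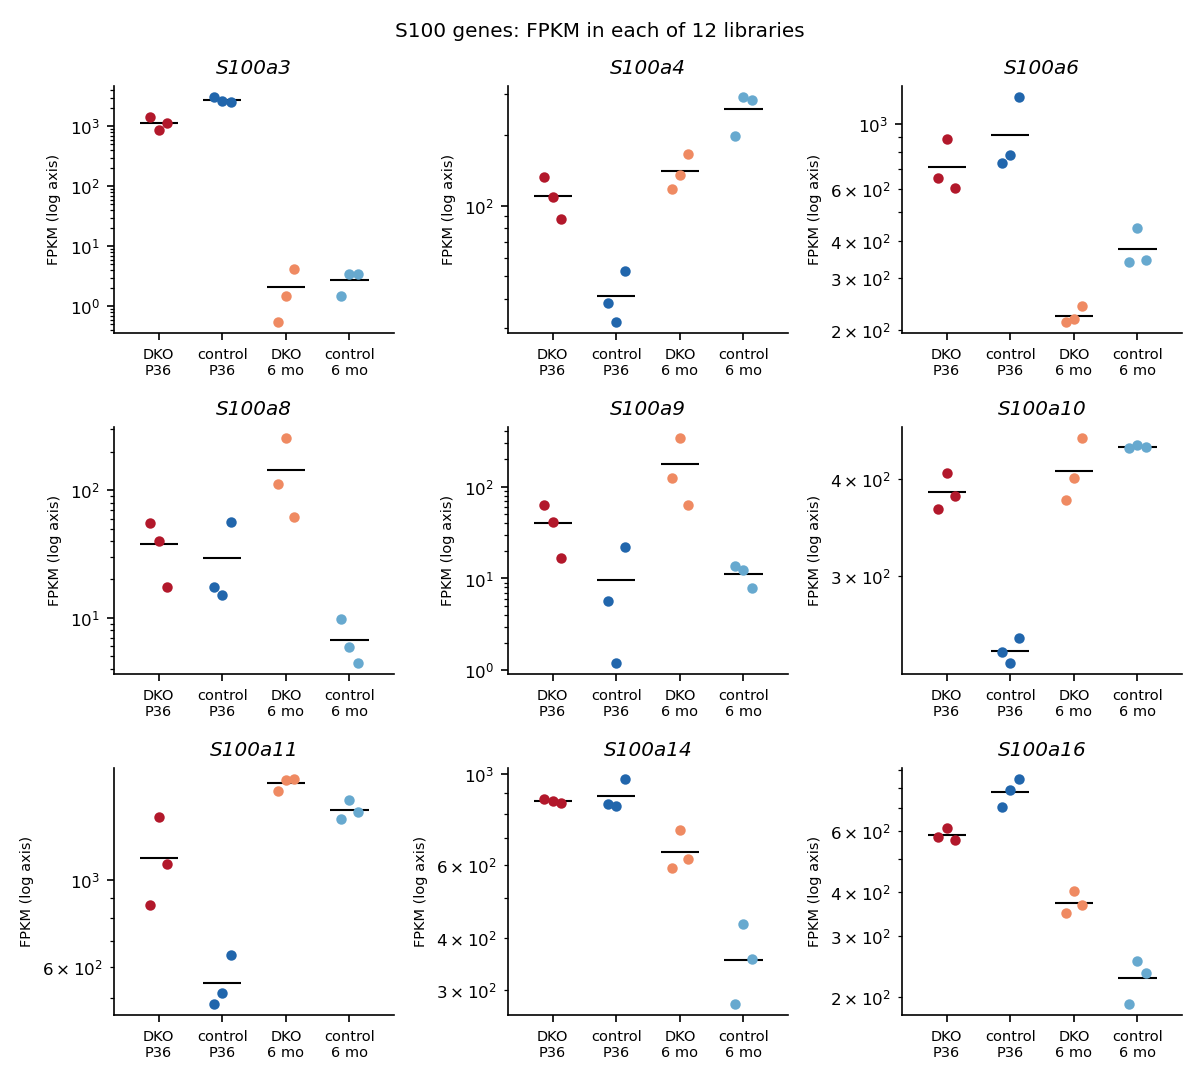
FPKM of the 9 S100 genes in each of 12 libraries, on a log axis that differs between panels. Points are libraries and bars are group means. The S100a8 and S100a9 points of the 6-month DKO-labelled libraries lie at 61.49 FPKM or above and those of the 6-month controls at 13.75 FPKM or below, and S100a3 lies at 863.99 FPKM or above in every P36 library and at 4.14 FPKM or below in every 6-month library.

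**Figure D2:**
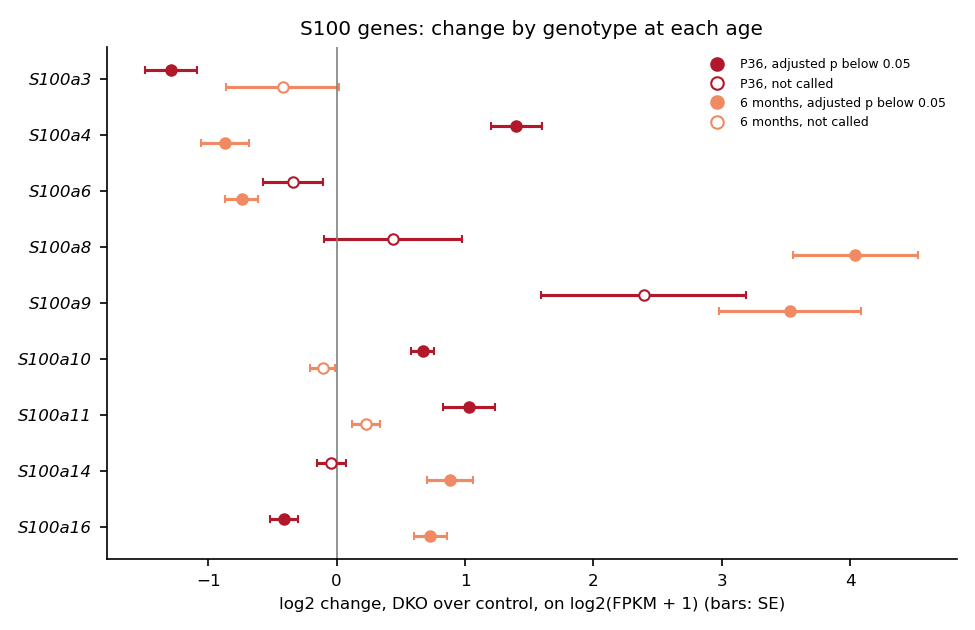
Log2 change of each S100 gene, DKO over control, at P36 and at 6 months, from limma on log2(FPKM + 1). Bars are standard errors and filled points passed an adjusted p of 0.05. S100a4 and S100a16 sit on opposite sides of 0 at the 2 ages, and S100a8 and S100a9 have the highest changes at 6 months, 4.04 and 3.53.

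The calprotectin genes S100a8 and S100a9 showed the highest rise of the family, at 6 months. The 250 bases before the annotated start of each are printed because both subunits rose at 6 months. They are RefSeq sequences of build GRCm38.p6, at chr3:90668821-90669070 (plus strand) for S100a8 and chr3:90695722-90695971 (minus strand) for S100a9, written 5′ to 3′ with capitals for motif matches.
S100a8: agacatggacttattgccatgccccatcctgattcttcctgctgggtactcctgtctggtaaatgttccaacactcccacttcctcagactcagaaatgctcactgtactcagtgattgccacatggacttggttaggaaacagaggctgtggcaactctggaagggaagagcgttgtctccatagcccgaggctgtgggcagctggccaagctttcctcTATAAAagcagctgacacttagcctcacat
S100a9: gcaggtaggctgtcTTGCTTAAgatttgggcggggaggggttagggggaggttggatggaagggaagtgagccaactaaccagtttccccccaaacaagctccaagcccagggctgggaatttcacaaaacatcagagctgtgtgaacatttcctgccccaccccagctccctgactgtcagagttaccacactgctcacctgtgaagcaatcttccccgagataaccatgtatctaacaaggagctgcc
On both strands, the letters of AP-1 (TGANTCA), C/EBP (TTGCNNAA) and the TATA box (TATAAA) were searched, and an NF-kB motif and a vitamin D receptor direct repeat, given here by name. Of the 32851 promoter windows of this length, AP-1 was found in 6.75%, C/EBP in 9.56%, the TATA box in 12.4%, NF-kB in 0.356% and the direct repeat in 0.0517%. No 2 motif matches overlapped in the windows printed here. The S100a8 window holds a TATA box at -30 to -25 from the start site, and the S100a9 window holds a C/EBP match at -236 to -229. S100a10 and S100a14 have no entry in the promoter table. In the 11 windows of the other 7 genes no NF-kB or direct-repeat match was found.

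S100a8 reached 111.28, 255.38 and 61.49 FPKM in the 6-month DKO-labelled libraries, against 9.73, 5.94 and 4.45 FPKM in the 6-month control libraries. The groups did not overlap, and the lowest DKO-labelled library was above the highest control. The log2 change was 4.04 (SE 0.49, limma adjusted p = 0.00127), and the ratio of the mean FPKM was 21.3. At P36 S100a8 measured 55.35, 39.86 and 17.51 FPKM in the DKO-labelled libraries and 17.51, 15.11 and 56.48 FPKM in the control libraries. The 2 groups overlapped, with 1 control library above the highest DKO-labelled library (log2 change 0.44, SE 0.54, adjusted p = 0.627). The genotype effect differed between ages by 3.60 (SE 0.83, adjusted p = 0.00705).

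S100a9 reached 123.9, 335.98 and 62.97 FPKM in the 6-month DKO-labelled libraries, against 13.75, 12.3 and 7.85 FPKM in control libraries. Again the groups did not overlap, and the second DKO-labelled library was the highest and the third the lowest for both genes. The log2 change was 3.53 (SE 0.55, limma adjusted p = 0.00283). Without the second DKO-labelled library it was 2.89 (adjusted p = 0.00478), and that of S100a8 was 3.50 (adjusted p = 0.00353). At P36 S100a9 measured 63.5, 41.38 and 16.8 FPKM in the DKO-labelled libraries and 5.65, 1.21 and 21.84 FPKM in control libraries. The third DKO-labelled library lay below the third control, and the log2 change of 2.39 (SE 0.80) was not called (adjusted p = 0.0653). Leaving out 1 library gave P36 values between 1.57 without the second control (adjusted p = 0.145) and 3.25 without the third control (adjusted p = 0.0108), of which only the last was called. The difference between ages was 1.14 (SE 1.11, adjusted p = 0.45), and 0.28 without the third P36 control to 1.97 without the second, not called under any alternative tried.

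The balance of the 2 subunits was read library by library. The ratio of S100a8 to S100a9 FPKM was 0.872, 0.963 and 1.04 in the P36 DKO-labelled libraries and 3.1, 12.5 and 2.59 in the P36 controls. At 6 months it was 0.898, 0.76 and 0.976 in the DKO-labelled libraries and 0.708, 0.483 and 0.567 in controls. All 3 P36 controls lay above all 3 DKO-labelled libraries of that age, and all 3 6-month controls lay below all 3 DKO-labelled libraries of theirs, the nearest values being 0.76 in a DKO-labelled library and 0.708 in a control. On the scale of log2(FPKM + 1) the difference of the log2 ratio, DKO minus control, was -1.96 at P36 and 0.51 at 6 months. Neither can pass a two-sided exact permutation test, whose smallest p for 3 libraries against 3 is 0.1, the value found at both ages.

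**Figure D3:**
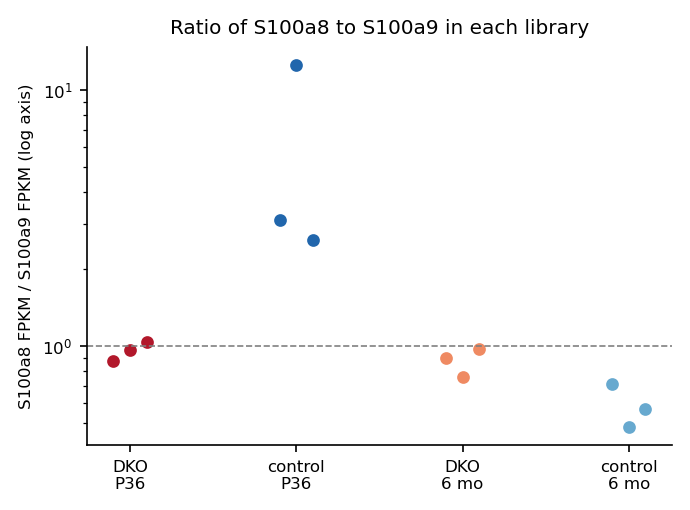
Ratio of S100a8 to S100a9 FPKM in each library, on a log axis, with a dashed line at 1. The DKO-labelled libraries lie between 0.76 and 1.04 at both ages, the P36 controls between 2.59 and 12.5, and the 6-month controls between 0.483 and 0.708.

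Neutrophil markers were low in all libraries. The 12 listed markers summed to 14.2 to 25.3 FPKM in the DKO-labelled libraries and 4.66 to 6.13 FPKM in controls at P36, and to 18.6 to 20 FPKM in the DKO-labelled libraries and 7.71 to 7.95 FPKM in controls at 6 months. Of these, 4 were tested and 4 were higher at P36, and 2 were tested and 1 was higher at 6 months. Csf3r, Retnlg and Itgam were below 1 FPKM in every P36 control and passed the filter there only through the DKO-labelled libraries. They could be tested only because they were high under that label, so the P36 count was largely set by the filter. At P36 the receptor gene Csf3r measured 6.13, 3.45 and 1.84 FPKM in the DKO-labelled libraries and 0.48, 0.36 and 0.5 FPKM in controls (log2 change 1.63, SE 0.30, limma adjusted p = 0.00627). Retnlg, Itgam, an integrin gene that macrophages also express, and Cxcr2 were higher at P36 by 1.48, 1.59 and 0.85 on the log2 scale. The 1 called at 6 months was Cxcr2, a chemokine receptor, at 15.5, 16.53 and 11.09 FPKM in the DKO-labelled libraries against 4.75, 5.1 and 5.21 FPKM in controls. Cxcr2 made up most of the 6-month sum in every library. The neutrophil surface antigen gene Ly6g and the granule protein genes Elane, Ngp and Ltf were at 0 in all P36 controls and at 0.44 FPKM or less in every library of the other groups. Other untested markers lay apart at P36. Camp measured 2.16, 1.87 and 0.97 FPKM in the DKO-labelled libraries and 0.49, 0.39 and 0.2 FPKM in controls. Mmp8 was at 0.36 to 0.66 FPKM against 0 to 0.02 FPKM, and Fpr1 at 0.08 to 0.47 FPKM against 0 to 0.04 FPKM. Mpo overlapped at P36 and lay apart at 6 months, at 0.18 to 0.74 FPKM against 0 to 0.07 FPKM. The part of neutrophils in the calprotectin change was not tested. Of the wound keratins, which keratinocytes make after injury, 4 of 4 were higher at 6 months and 2 of 4 at P36. Krt6b stood at 74.52, 99.44 and 49.25 FPKM in the 6-month DKO-labelled libraries against 1.44, 4.53 and 7.3 FPKM in controls, and Krt16 at 401.3, 339.56 and 257.96 FPKM in those DKO-labelled libraries against 32.52, 60.42 and 29.87 FPKM in controls. Krt6b and Krt16 were also higher at P36, by 4.50 (SE 0.55, limma adjusted p = 0.00136) and 2.35 (SE 0.32, adjusted p = 0.00196) on the log2 scale. At P36 Krt6a had a log2 difference of 0.85 (adjusted p = 0.114) and Krt17 of -0.02 (adjusted p = 0.958), neither called.

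Cytokines and signals known to induce S100a8 and S100a9 in skin were listed as 18 genes, of which 14 were tested at each age. The cytokine genes Il17a, Il17f and Il17c, at 0.61 FPKM or less in every library, and Il22, without values, were not tested. The 14 tested include receptors and transcription factors as well as cytokines. At P36, 9 were higher and 0 lower (18.0% and 5.32% of all genes), and at 6 months 4 were higher and 1 lower (23.2% and 18.2% of all genes). The list's median log2 change was 0.86 at P36 and 0.05 at 6 months, beside 0.09 and 0.04 over all genes. Scaled to totals without keratin and cornified envelope genes, the 6-month counts of these inducers of S100a8 and S100a9 in skin were 3 higher and 4 lower. Without 1 library they were 2 lower without the first control, and 0 lower without the second control or the second DKO-labelled library. Il36b, an epithelial cytokine of the interleukin-1 family, measured 119.94, 151.61 and 109.12 FPKM in the 6-month DKO-labelled libraries and 9.84, 23.74 and 17.18 FPKM in controls (log2 change 2.90, SE 0.29, limma adjusted p = 0.000637). Its relative Il36a measured 52.9, 72.19 and 37.68 FPKM in the 6-month DKO-labelled libraries and 3.94, 13.23 and 6.5 FPKM in controls (log2 change 2.73, SE 0.39, adjusted p = 0.00217). At P36 Il36b was higher too, by 2.25 (SE 0.39, adjusted p = 0.0049), and Il36a had a log2 difference of 1.09 that was not called (adjusted p = 0.28). The effects of Il36b and Il36a differed between ages by 0.65 and 1.64, neither called (adjusted p = 0.382 and 0.162). Il36g was also higher at both ages, by 1.48 (SE 0.24) at P36 and 1.62 (SE 0.25) at 6 months. In contrast, Il1b and Stat3, the transcription factor downstream of several such cytokines, were higher at P36 by 1.41 (SE 0.21, adjusted p = 0.00307) and 1.29 (SE 0.13, adjusted p = 0.000724), and had log2 differences of 0.18 and 0.10 at 6 months that were not called. Set against each other, the ages differed by a called value for Stat3 (-1.18, adjusted p = 0.00346) and not for Il1b (-1.23, adjusted p = 0.172).

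Receptors and adaptors through which S100 proteins act outside the cell were listed as 11 genes. At P36, 8 of 11 tested were higher and 0 lower (18.0% and 5.32% of all genes). At 6 months 3 of 10 were higher and 0 lower (23.2% and 18.2% of all genes). Tlr2 and Tlr4 were below 1 FPKM in every P36 control. They passed the filter at P36 only through the DKO-labelled libraries and could be tested only because they were high there. Without any 1 of the P36 DKO-labelled libraries Tlr2 and Tlr4 did not pass the filter and were no longer tested. Without the second or the third P36 DKO-labelled library 5 of 9 tested were higher. Cd14, which presents ligands to Toll-like receptors, measured 5.92, 5.96 and 4.32 FPKM in the P36 DKO-labelled libraries and 1.04, 0.67 and 0.94 FPKM in controls. Tlr2 measured 4.68, 3.84 and 2.98 FPKM in the P36 DKO-labelled libraries and 0.91, 0.7 and 0.56 FPKM in controls. Both effects were lower at 6 months, by -1.23 (SE 0.30, limma adjusted p = 0.00884) for Cd14 and by -1.10 (SE 0.24, adjusted p = 0.00572) for Tlr2. The fatty acid carrier Cd36 was higher at both ages, by 1.06 (SE 0.14) and 1.55 (SE 0.30). Macrophage markers summed to 290 to 446 FPKM in the P36 DKO-labelled libraries against 59.3 to 80.5 FPKM in controls, and their part in the receptor counts was not tested.

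S100a10 and S100a11 bind annexins, calcium-dependent membrane-binding proteins: S100a10 holds annexin A2 in a heterotetramer, and S100a11 binds annexin A1 and is built into the cornified envelope. S100a10 measured 365.7, 406.14 and 380 FPKM in the P36 DKO-labelled libraries and 239.11, 231.89 and 249.32 FPKM in controls, with no overlap and little spread (log2 change 0.67, SE 0.09, limma adjusted p = 0.00203). At 6 months it measured 374.92, 400.7 and 450.76 FPKM in the DKO-labelled libraries and 438.25, 441.22 and 438.92 FPKM in controls, where the third DKO-labelled library lay above the controls and the other two below them (log2 change -0.11, SE 0.10, adjusted p = 0.429). Between ages the effect differed by -0.78 (SE 0.12, adjusted p = 0.000884).

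S100a11 was the most abundant of the 9 genes in every 6-month library. It measured 860.62, 1445.64 and 1097.32 FPKM in the P36 DKO-labelled libraries and 483.7, 513.99 and 641.98 FPKM in controls (log2 change 1.03, SE 0.20, limma adjusted p = 0.00863). At 6 months it measured 1681.99, 1789.75 and 1797.82 FPKM in the DKO-labelled libraries and 1422.19, 1590.9 and 1480.07 FPKM in controls. Those groups did not overlap either, but the change of 0.23 (SE 0.11) was not called (adjusted p = 0.131). Its effect differed between ages by -0.80 (SE 0.24, adjusted p = 0.0227), and without the first P36 control library -0.72 (adjusted p = 0.0562). A pseudogene, S100a11-ps, is annotated, and no source used here says how reads were split between the 2, so the S100a11 level is uncertain to that extent. The promoters of S100a11 and of S100a4, the 2 genes with the highest P36 change among those called, are at chr3:93520246-93520495 and chr3:90603520-90603769 of GRCm38.p6 (both plus strand), with motif matches in capitals.
S100a11: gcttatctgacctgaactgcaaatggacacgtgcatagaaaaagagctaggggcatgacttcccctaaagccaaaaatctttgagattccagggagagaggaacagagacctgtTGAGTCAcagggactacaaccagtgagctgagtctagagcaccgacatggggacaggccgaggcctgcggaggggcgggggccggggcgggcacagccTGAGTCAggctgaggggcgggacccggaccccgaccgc
S100a4: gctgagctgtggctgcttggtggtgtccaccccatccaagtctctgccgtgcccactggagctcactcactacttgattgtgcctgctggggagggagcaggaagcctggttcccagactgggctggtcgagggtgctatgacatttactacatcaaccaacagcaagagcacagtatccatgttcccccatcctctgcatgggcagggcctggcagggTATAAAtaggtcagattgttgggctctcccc
The S100a11 window holds the AP-1 letters TGAGTCA at -136 to -130 and at -38 to -32, and the S100a4 window a TATA box at -31 to -26.

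Among 10 annexin genes, 6 were higher and 0 lower at P36 (18.0% and 5.32% of all genes). At 6 months 0 were higher and 5 lower (23.2% and 18.2% of all genes). The genotype effect was lower at 6 months than at P36 for 6 of the 10 and higher for 0 (21.1% and 13.8% of all genes). Anxa2, the partner of S100a10, measured 692.26, 747.33 and 758.36 FPKM in the P36 DKO-labelled libraries and 500.37, 442.11 and 578.62 FPKM in controls. At 6 months it measured 618.97, 707.84 and 609.44 FPKM in the DKO-labelled libraries and 910.6, 1050.63 and 971.35 FPKM in controls. The order of the groups was thus opposite at the 2 ages, without overlap at either, and the difference was -1.14 (SE 0.16, limma adjusted p = 0.000485). Anxa6, Anxa7 and Anxa8 had the same pair of calls as Anxa2. Anxa5 was higher at P36 by 0.99 (SE 0.09, adjusted p = 0.000486) and had a value of -0.05 at 6 months that was not called, and Anxa11 was lower at 6 months by 1.01 on the log2 scale (-1.01, SE 0.14, adjusted p = 0.00197). Anxa1, the partner of S100a11, named after its values were seen, had log2 differences of 0.14 at P36 and -0.22 at 6 months, neither called. With another scaling, to the median ratio over genes, the annexin counts were 4 higher and 0 lower at P36 and 0 higher and 5 lower at 6 months. Without 1 library the P36 count fell to 4 higher for the second control and for the second and the third DKO-labelled library, and the 6-month count to 3 lower without the second control. Of the macrophage, muscle and fibroblast markers, 10 of 10, 8 of 9 and 5 of 10 were also higher at P36 in the DKO-labelled libraries, and their part in the annexin counts was not tested.

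**Figure D4:**
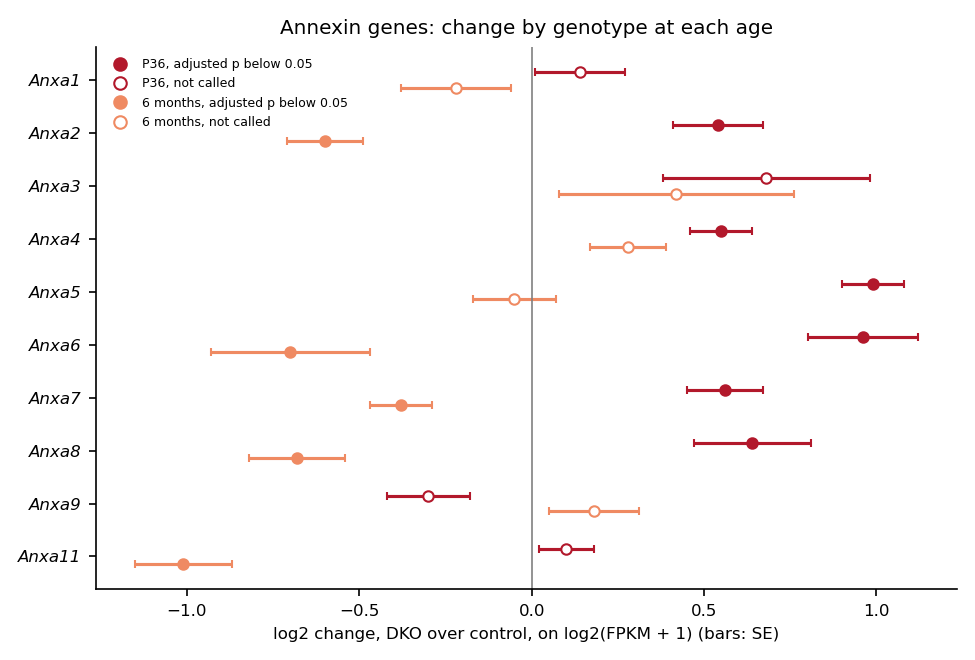
Log2 change of 10 annexin genes, DKO over control, at P36 and at 6 months, from limma on log2(FPKM + 1). Bars are standard errors and filled points passed an adjusted p of 0.05. The 6 filled P36 points lie right of 0 and the 5 filled 6-month points left of 0.

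S100a4, a regulator of non-muscle myosin that is also made by fibroblasts and macrophages, moved in opposite directions at the 2 ages. It measured 132.82, 108.49 and 87.54 FPKM in the P36 DKO-labelled libraries and 38.38, 31.99 and 52.9 FPKM in controls (log2 change 1.40, SE 0.20, limma adjusted p = 0.0026). At 6 months it measured 118.13, 134.59 and 165.89 FPKM in the DKO-labelled libraries and 197.98, 289.45 and 282.8 FPKM in controls (log2 change -0.87, SE 0.19, adjusted p = 0.00968). Neither pair of groups overlapped, and the ratio of means was 2.67 at P36 and 0.543 at 6 months. This reversal amounted to a difference of -2.27 between ages (SE 0.31, adjusted p = 0.000366). Within controls S100a4 was higher at 6 months than at P36 by 2.62 (SE 0.22, adjusted p = 1.08e-06), and within the DKO-labelled libraries by 0.35 (SE 0.22, adjusted p = 0.179). Langerhans and T cell markers summed to 578 to 674 FPKM in the DKO-labelled libraries and 280 to 352 FPKM in controls at P36, and to 688 to 875 FPKM in the DKO-labelled libraries and 1104 to 1399 FPKM in controls at 6 months. Of 9 tested, 6 were higher and 0 lower at P36, and 1 was higher, 3 lower and 5 not called at 6 months. The antigen presentation genes Cd74 and H2-Ab1 carried most of the 6-month sums, at 294 ± 77.1 and 152 ± 33.7 FPKM in the DKO-labelled libraries and 684 ± 111 and 306 ± 55.7 FPKM in controls (SD, n = 3 each). The Langerhans cell gene Cd207 had log2 differences of 0.44 at P36 and -0.22 at 6 months, neither called. Of the dermal fibroblast markers 5 of 10 were higher at P36, and 0 of 10 were called by limma at 6 months, where 0 also had an unadjusted p under 0.05. Macrophage markers were higher for 10 of 10 at P36. Of 9 tested at 6 months, 0 were higher, 1 lower and 8 not called. Their 6-month sums were 90 to 398 FPKM in the DKO-labelled libraries and 87.4 to 147 FPKM in controls. The part of these cells in the S100a4 change was not tested, and in bulk tissue fewer cells of a type and less RNA per cell cannot be told apart.

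S100a6, or calcyclin, which binds the ubiquitin-ligase adaptor encoded by Cacybp, was lower at 6 months. It measured 212.53, 216.67 and 240.02 FPKM in the 6-month DKO-labelled libraries and 337.91, 443.18 and 344.35 FPKM in controls, without overlap (log2 change -0.74, SE 0.13, limma adjusted p = 0.00462). At P36 it measured 651.63, 884.08 and 603.25 FPKM in the DKO-labelled libraries and 733.36, 785.28 and 1228.8 FPKM in controls, with overlap (log2 change -0.34, SE 0.23, adjusted p = 0.338). For S100a6 the ages differed by -0.40 (SE 0.28, adjusted p = 0.295). Of 6 other binding partners of S100 proteins, 0 were called by limma at P36, where 2 had an unadjusted p under 0.05, and at 6 months 2 were higher and 2 lower. Without the first P36 DKO-labelled library 1 of these other binding partners was higher at P36, and without the second 6-month DKO-labelled library 1 was higher at 6 months. The 2 higher were Cacybp, by 0.58 (SE 0.14, adjusted p = 0.0164), and Sugt1, a chaperone adaptor that also binds calcyclin, by 0.81 (SE 0.13, adjusted p = 0.0028). The 2 lower were Ahnak, the scaffold bound by the annexin A2 complex (-0.54, SE 0.11, adjusted p = 0.00734), and Trpv6, a calcium channel carried to the membrane by it (-0.65, SE 0.12, adjusted p = 0.0047). Myh9, the myosin bound by S100a4, had log2 differences of 0.33 at P36 (adjusted p = 0.0616) and -0.14 at 6 months (adjusted p = 0.67), neither called.

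S100a3 was the most abundant member in P36 controls and was at or under 4.14 FPKM at 6 months in both genotypes. It measured 1407.02, 863.99 and 1124.03 FPKM in the P36 DKO-labelled libraries and 3054.04, 2622.93 and 2496.55 FPKM in controls, without overlap (log2 change -1.29, SE 0.20, limma adjusted p = 0.00315). At 6 months it measured 0.55, 1.49 and 4.14 FPKM in the DKO-labelled libraries and 1.46, 3.39 and 3.38 FPKM in controls, where the groups overlapped (log2 change -0.42, SE 0.44, adjusted p = 0.479). Between ages the log2 change, 6 months over P36, was -8.68 (SE 0.37, adjusted p = 1.55e-08) in the DKO-labelled libraries and -9.55 (SE 0.37, adjusted p = 3.75e-09) in controls, and the means were 549-fold and 993-fold lower at 6 months. The S100a3 gene overlaps S100a2, and no source used here says whether reads were counted by strand. Hair shaft markers, the keratins and associated proteins of the growing hair, were lower at P36 for 13 of 14 tested and higher for 0. They summed to 2796, 1676 and 2333 FPKM in the P36 DKO-labelled libraries and 6479, 4190 and 5855 FPKM in controls, and to 1.12 to 8.54 FPKM and 5.2 to 7.72 FPKM at 6 months in the DKO-labelled libraries and in controls. The part of hair follicle content in the S100a3 change was not tested.

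S100a14 and S100a16, neighbours on chromosome 3 whose human proteins bind each other, are made by keratinocytes. S100a14 measured 591.06, 730.8 and 621.07 FPKM in the 6-month DKO-labelled libraries and 277.55, 432.07 and 355.23 FPKM in controls, without overlap (log2 change 0.88, SE 0.18, limma adjusted p = 0.0073). At P36 it measured 868.92, 858.16 and 848.01 FPKM in the DKO-labelled libraries and 846.57, 834.52 and 969.21 FPKM in controls (log2 change -0.04, SE 0.11, adjusted p = 0.854). Without the third P36 control that value was 0.03. S100a16 measured 347.6, 404.13 and 366.67 FPKM in the 6-month DKO-labelled libraries and 190.88, 253.36 and 233.48 FPKM in controls (log2 change 0.73, SE 0.13, adjusted p = 0.00484). At P36 it measured 577.96, 611.25 and 565.03 FPKM in the DKO-labelled libraries and 705.92, 786.25 and 846.05 FPKM in controls, again without overlap (log2 change -0.41, SE 0.11, adjusted p = 0.034). That P36 call was lost without the second or the third control (adjusted p = 0.0852 and 0.0733) and without the first, the second or the third DKO-labelled library (adjusted p = 0.0852, 0.0773 and 0.139). The difference between ages was 0.92 (SE 0.21, adjusted p = 0.00596) for S100a14 and 1.14 (SE 0.16, adjusted p = 0.000543) for S100a16.

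Counting groups that did not overlap, with no model, gave 5 of the 9 genes at P36, where 39.6% of all genes tested did not overlap, and 7 of the 9 at 6 months, where 55.7% did not.

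Between the 6-month and the P36 tables most of the 9 genes differed within each genotype, and age and table cannot be told apart. In controls 8 of the 9 genes were called between 6 months and P36, where 63.1% of all genes were: S100a4, S100a10 and S100a11 were higher and S100a3, S100a6, S100a8, S100a14 and S100a16 lower at 6 months (35.3% and 27.9% of all genes were called higher and lower). In the DKO-labelled libraries 6 of the 9 were called, where 60.0% of all genes were: S100a8 and S100a11 were higher and S100a3, S100a6, S100a14 and S100a16 lower (28.0% and 32.0% of all genes were called higher and lower). S100a8 changed by 1.80 (SE 0.59, limma adjusted p = 0.0202) in the DKO-labelled libraries and by -1.80 (SE 0.59, adjusted p = 0.0188) in controls. Its DKO call was lost without the third P36 library (1.34, adjusted p = 0.086) or the second 6-month library (1.26, adjusted p = 0.0953) labelled DKO, and its control call without the third P36 control (-1.22, adjusted p = 0.0857) or the third 6-month control (-1.58, adjusted p = 0.064). S100a14 was lower at 6 months in the DKO-labelled libraries (log2 change -0.41, SE 0.15, adjusted p = 0.029), a call lost without the first, the second or the third P36 library (adjusted p = 0.0676, 0.0639 and 0.0593) or the first or the third 6-month library (adjusted p = 0.0988 and 0.0712) of that label. S100a9 had a log2 difference of 1.93 (SE 0.79, adjusted p = 0.0514) between ages in the DKO-labelled libraries. It was called there without the second P36 control (1.93, adjusted p = 0.0245), the third P36 control (1.93, adjusted p = 0.0222), the first P36 DKO-labelled library (2.34, adjusted p = 0.0438) or the third 6-month DKO-labelled library (2.49, adjusted p = 0.0224).

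Added together, the 9 genes made up 0.647% to 1.18% of all FPKM in a library. Their sum was 4984, 5259 and 4739 FPKM in the P36 DKO-labelled libraries and 6124, 5823 and 6563 FPKM in controls, and 3562, 4269 and 3771 FPKM in the 6-month DKO-labelled libraries and 2890, 3472 and 3151 FPKM in controls. The sum was lower in all P36 DKO-labelled libraries than in the controls of that age and higher in all 6-month ones, by -0.30 and 0.29 on the log2 scale (two-sided exact permutation p = 0.1 each, the smallest possible with 3 against 3). As a share of all FPKM the 6-month groups overlapped, at 0.698%, 0.807% and 0.744% in the DKO-labelled libraries and 0.647%, 0.745% and 0.666% in controls. The P36 shares did not overlap, at 0.915% to 0.966% in the DKO-labelled libraries and 1.13% to 1.18% in controls. S100a3 alone made up 28.2%, 16.4% and 23.7% of the sum in the P36 DKO-labelled libraries and 49.9%, 45% and 38% in controls. At 6 months S100a11 took 41.9% to 47.7% in the DKO-labelled libraries and 45.8% to 49.2% in controls. S100a8 and S100a9 together with S100a4 were the least abundant of the 9 at P36, by mean FPKM. In the 6-month DKO-labelled libraries the order by mean was S100a11, S100a14, S100a10, S100a16, S100a6, S100a9, S100a8, S100a4 and S100a3. In that order S100a10 and S100a16 overlapped, and so did each neighbouring pair from S100a6 to S100a4. In 6-month controls S100a10 came second, and S100a9 and S100a8 stood at 11.3 ± 3.07 and 6.71 ± 2.72 FPKM (SD, n = 3), above S100a3 alone.

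**Figure D5:**
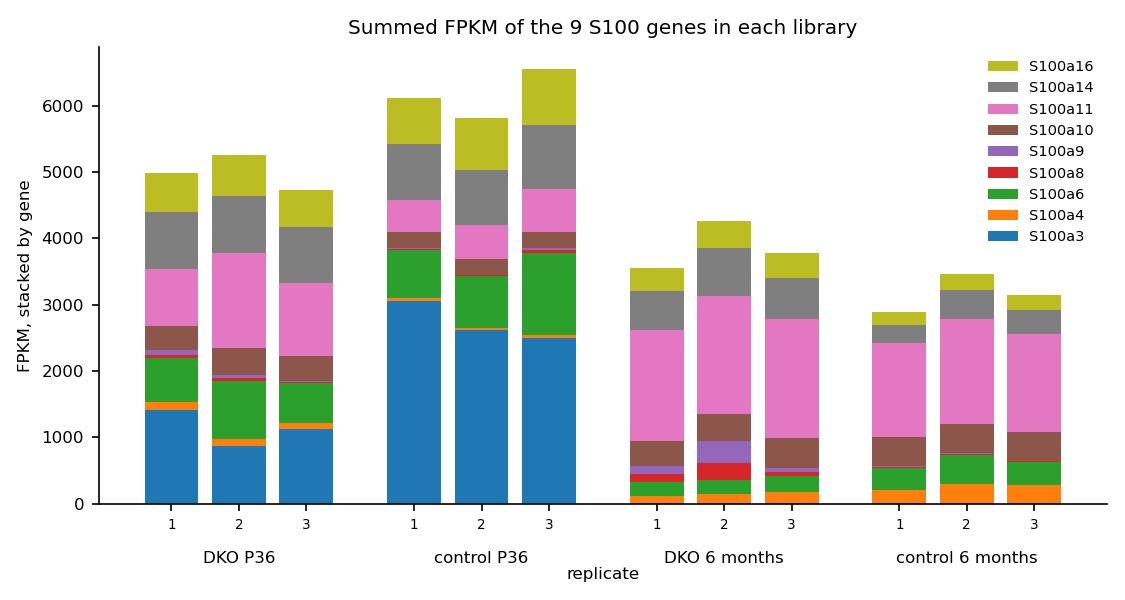
Summed FPKM of the 9 S100 genes in each library, stacked by gene. S100a3 (the lowest block) fills 38% to 49.9% of the bar in P36 controls and 16.4% to 28.2% in P36 DKO-labelled libraries, and S100a11 is the widest block in every 6-month library.

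Other S100 genes were read beside them: of 9 listed, 4 were tested at each age. At P36 0 were higher and 1 was lower, S100a7a, at 43, 24.43 and 27.67 FPKM in the DKO-labelled libraries against 104.31, 84.51 and 94.35 FPKM in controls (log2 change -1.58, SE 0.20, limma adjusted p = 0.00141). At 6 months 3 were higher and 0 lower: S100a1, a regulator of calcium handling in muscle, S100a13, a partner in the release of growth factors without a signal peptide, and S100a7l2. Of these S100a13 was nearest the threshold (log2 change 0.41, SE 0.13, adjusted p = 0.0418). S100a1 measured 119.35, 129.98 and 88.64 FPKM in the 6-month DKO-labelled libraries and 55.75, 39.03 and 55.27 FPKM in controls (log2 change 1.16, SE 0.19, adjusted p = 0.00352). S100a1 and S100a13 overlap each other on the chromosome, so their reads may not be separable where strand was not used.

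The S100 fused-type genes, large proteins of the cornified layer and hair that begin with an S100 domain, lie in the same complex, and 6 were tested at P36 and 4 at 6 months. At P36 1 was higher and 3 lower, and at 6 months 2 were higher and 1 lower. The 1 higher at P36 was Hrnr, whose groups overlapped (log2 change 1.25, SE 0.37, limma adjusted p = 0.0423). Without the second or the third control, or without any 1 of the DKO-labelled libraries, 0 of the fused-type genes were higher at P36 by limma. At 6 months 1 was higher without the first or the second DKO-labelled library. The 3 lower at P36 were Tchh (-1.84, SE 0.18), Tchhl1 (-2.15, SE 0.25) and Crnn (-1.81, SE 0.23), of which Tchh encodes trichohyalin of the inner root sheath. At 6 months Rptn, a cornified envelope protein, measured 15.04, 30.4 and 18.25 FPKM in the DKO-labelled libraries and 5.19, 3.01 and 3.16 FPKM in controls (log2 change 2.18, SE 0.28, limma adjusted p = 0.00142). Flg2, a relative of filaggrin, was lower at that age (-2.05, SE 0.14, adjusted p = 0.000194).

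By their place on chromosome 3 in RefSeq, S100a14, S100a16, S100a3, S100a4, S100a6, S100a8 and S100a9 lie close together in that order, and S100a11 and S100a10 lie beyond 56 other protein-coding genes. At P36 S100a3 was lower and S100a4, separated from it among the S100 genes by S100a2 alone, was higher. S100a11 and S100a10, next to each other in the order of S100 genes, were both higher at P36. S100a14 and S100a16 had P36 log2 changes of -0.04 and -0.41, and S100a8 and S100a9 of 0.44 and 2.39. Of these only that of S100a16 was called. At 6 months S100a14 and S100a16 were both higher, S100a4 and S100a6 both lower, and S100a8 and S100a9 both higher.

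Over the 12 libraries, the genes whose log2(FPKM + 1) followed S100a3 most closely among 13280 genes were Krt31 (Pearson r = 0.9975), a gene with no symbol in the gene table (0.9966), Krt35 (0.9966) and Heyl (0.9966). Krt31 and Krt35 are hair keratins. S100a8 was followed by Snu13 (r = 0.9681), Mrpl47 (0.9555), Snrpb2 (0.9513) and Rabggtb (0.9505), and S100a9 by Arpc5 (0.945), Bin3 (0.9376), Lamtor3 (0.9351) and Eloc (0.9326). These are descriptions over libraries that share 4 group means, and no test was made.

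The authors' deposited table gives log2 changes, DKO over control, of 4.428 for S100a8 and 3.957 for S100a9 at 6 months. For S100a8 at P36 the authors' deposited table gives a log2 change of 0.3374 with q = 2.17e-05, where the libraries of the 2 groups overlap. For S100a14 at P36 the authors' deposited table gives -0.04014 with q = 1.01e-05, where they overlap too. No source used here names the test behind those q-values.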

How the data were processed

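RNA-seq libraries of epidermis lifted from dorsal skin by heat, with ribosomal RNA removed by RNase H, were sequenced as single-end reads on a BGISEQ-500, per the labels' protocols. The authors deposited FPKM per gene and library in 1 table per age, with their own log2 ratio (DKO over control), p-value and q-value columns, per the file headers. HISAT2 2.1.0 and RSEM 1.2.8 are named in the submitters' processing notes, which also name human genome builds for these mouse samples, so no coordinate is taken from the deposited tables. Promoters come from RefSeq, GRCm38.p6.

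limma 3.58.1 in R 4.3.3 was run on log2(FPKM + 1) with a trended variance prior, without covariates, keeping genes that reached 1 FPKM in 3 or more of the libraries fitted, with Benjamini-Hochberg adjustment over all genes tested. A fold change on this scale understates that of low genes. Each age was fitted alone, and the difference between ages and the age effects in 1 fit of all 12 libraries. Columns of values left unused numbered 0. Symbols matched 19343 of 19392 and 17712 of 17750 Entrez numbers, and Il36a, Il36b and Il36g were matched by synonym. The 9 genes and the gene lists were chosen with earlier results of these data known. Named genes are all 9 members, in each list up to 4 genes with the smallest adjusted p at each age, Vdr and Med1, and the 4 genes most correlated with S100a3, S100a8 and S100a9. Ly6g, Elane, Ngp, Ltf, Camp, Mmp8, Fpr1, Mpo and Cd207, markers of cell types, were named outside this rule, after their values were seen. So were Anxa1, Tlr4, Il17a, Il17f and Il17c, and also Il22, which had no values. Read totals could not be recovered from the FPKM, since a pair of libraries shared only 15 to 119 low genes. No 2 libraries held the same values (identical values made up 0.412% of expressed genes or less in any pair). Replicate numbers did not pair the libraries: same-numbered DKO and control libraries had deviations correlated at 0.135, -0.0576 and -0.115 at P36 and at -0.0632, 0.032 and 0.183 at 6 months. The fit was tested on simulated data. Other scalings, filters, pseudocounts, priors and the omission of each library were tried.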

Additional observations from a re-analysis of the deposited data

Results flagged for a closer look

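The genotype effect on 6 of the 9 S100 genes differed between ages, by an interaction term fitted with limma over 12 libraries (6 months minus P36). By the same term 34.9% of 13280 genes were called, 13.8% with a higher and 21.1% with a lower effect at 6 months. The difference was 3.60 for S100a8, 0.92 for S100a14 and 1.14 for S100a16, where the effect was higher at 6 months, and -2.27 for S100a4, -0.78 for S100a10 and -0.80 for S100a11, where it was lower. Age and deposited table coincide, so what differed between the tables cannot be told apart from age. For the same difference, 5 of 10 muscle, 4 of 10 macrophage and 3 of 10 fibroblast markers were called lower and 0 of each higher. Of the keratinocyte markers 8 of 10 were called lower and 1 higher, and of the Langerhans and T cell markers 6 of 9 lower and 1 higher. Of the hair shaft markers 10 of 14 were called higher and 0 lower. The others of these markers were not called. Wound keratins were higher for 2 of 4 at P36 and 4 of 4 at 6 months. For the difference between ages 1 of the 4 was called, Krt17 (1.02, limma adjusted p = 0.0156), and 3 were not. The part of any of these markers and keratins in the S100 differences was not tested.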

How the results depend on the processing

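Of 764 values of single S100 genes under other settings, 735 kept their direction and their side of the threshold, 17 lost a call, 10 gained one and 2 turned sign. The 2 were S100a14 at P36, 0.03 without the third control (-0.08 to 0.03 with 1 library left out), and S100a9 between ages in controls, -0.04 without the second P36 control (-0.04 to 1.65); neither was called under any setting tried. Leaving out 1 library at a time, the number of the 9 genes called ranged from 4 to 5 at P36, was 6 throughout at 6 months, and ranged from 5 to 6 for the difference between ages, 4 to 7 between ages in DKO and 7 to 8 in controls. The replicate numbers did not pair the libraries; with a replicate block 4 genes were called at P36 (S100a16 lost, -0.41, adjusted p = 0.0831), 6 at 6 months, and 7 for the difference (S100a3 gained, 0.87, adjusted p = 0.0478). S100a9 at P36 was called in the fit of all 12 libraries (adjusted p = 0.0496), S100a16 at P36 was not without a filter (adjusted p = 0.0617), and S100a10 at 6 months was called lower after scaling to totals without keratin and cornified envelope genes (-0.31, adjusted p = 0.04). Over all genes, without the second or the third P36 library labelled DKO 1662 and 1697 genes were called in all, against 2949. With a filter of 5 FPKM S100a3 was not tested at 6 months. Read depth is not known, so low values such as S100a3 at 6 months carry no counting limit.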
